A study of Rattus norvegicus with 2 samples.

Results

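The small RNA pathway machinery was examined as 10 named genes, Drosha, Dgcr8, Xpo5, Tarbp2, Prkra, Ago2, Snd1, Mov10, Tdrd7 and Henmt1, which were looked up in the mRNA profiles of cultured cortical neurons by RefSeq identifier and by the description of each entry. Of these, 7 were listed among the 9894 genes with a value in either library, namely Dgcr8 (NM_001105865), Xpo5 (NM_001108789), Tarbp2 (NM_001034941), Prkra (NM_001024780), Snd1 (NM_022694), Mov10 (NM_001107711) and Tdrd7 (NM_138871). Drosha, Ago2 and Henmt1 were not listed in either library. No description matched them, earlier names included.

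The neurons came from the somatosensory cortex of Sprague-Dawley rat embryos at E16. They were dissociated, electroporated with a Scramble control plasmid or a PIWIL1 RNAi plasmid, and grown for 48 h before total RNA was taken. There was 1 library per condition, called the control and the RNAi library here. Which of the rat siRNAs was sequenced is not stated, and RNA was taken from the whole culture, so cells that took up no plasmid were included.

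Small RNAs guide Argonaute proteins to target RNAs. A primary microRNA transcript is cut in the nucleus by the Microprocessor, made of the RNase Drosha and its RNA-binding partner Dgcr8. The hairpin is carried out by the export receptor Xpo5 and cut again by Dicer, which works with the double-stranded RNA-binding proteins Tarbp2 and Prkra, and the product is loaded into an Argonaute such as Ago2. Snd1, a nuclease with a tudor domain, and Mov10, a helicase, are found with the Argonaute complex. Tdrd7 is a tudor protein of RNA granules in germ cells and lens, and Henmt1 methylates the 3′ ends of piRNAs, the small RNAs bound by PIWI proteins such as PIWIL1.

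Each library was read as 21-base tags that begin with CATG, so the evidence for a gene is a set of tags at numbered CATG sites, with site 1 nearest the 3′ end. The 7 genes had 53 tags in all. The tags below include the most copied tag of each gene and others described with their values, together with 2 (Dgcr8 site 3 and Xpo5 site 1) that had more copies in the RNAi library although their gene had fewer. Capitals mark CATG, the sequence at which transcripts were cut.
Prkra site 1: CATGgaataaaaagctgttct
Prkra site 2: CATGgtcggtttgctatgtat
Tdrd7 site 1: CATGgctctgactgttgtgga
Tdrd7 site 7: CATGacctctgagtacttcat
Mov10 site 1: CATGttgtggggattcccaca
Snd1 site 1: CATGaaagactgtgtgttagt
Snd1 site 2: CATGgtagaagttcggaagga
Tarbp2 site 1: CATGgatgatgaatgaaagga
Tarbp2 site 2: CATGaaccacagggccccagc
Tarbp2 site 3: CATGgccggtagcaaatagca
Tarbp2 site 4: CATGtcagctatctggatatt
Dgcr8 site 1: CATGctgcaagggtgggagcc
Dgcr8 site 3: CATGtgctgtcagacagacag
Xpo5 site 1: CATGtcagtaaaacctgtttc
Xpo5 site 2: CATGtgCATGtcagtaaaacc

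The Scramble library held 1947600 tag copies on genes and the RNAi library 1865913. A level is given as the deposited TPM, a gene's tag copies scaled to a common total of clean tags, in which gene length plays no part, and 3 copies made 0.886 TPM in the control and 0.908 TPM in the RNAi library. Because the number of CATG sites differs between genes, levels are compared only between the libraries and not between genes. No listed tag had fewer than 2 copies, so that absence from the tables does not set an upper limit for Drosha, Ago2 or Henmt1. Piwil1 itself was not listed, and its knockdown was not checked here. Of 9 neuronal markers all were listed, at 3825 TPM together in the control library and 2970 TPM in the RNAi library, of which Stmn2 made 2210 and 1719 TPM. Among the 9, 6 had a ratio below 1 and 3 (Dcx, Rbfox3 and Tbr1) above 1. Only Snap25 was called, lower by a log2 ratio of -0.72. Cortical progenitor markers (6 of 7 listed) went from 1009 to 1302 TPM, of which Vim made 790 and 1127 TPM. The other 5 (Nes, Sox2, Pax6, Hes5 and Fabp7) had ratios below 1. None of the 6 was called, Vim with a log2 ratio of 0.51 included. Astrocyte markers (3 of 4 listed) had 86.5 and 76.6 TPM, oligodendrocyte markers (5 of 5) 6.80 and 5.75 TPM and blood markers (2 of 3) 19.8 and 24.2 TPM. Of the microglial markers, 4 of 6 were listed, and Cd68 alone had 820 and 2191 TPM, with 98.7% and 99.5% of its copies on tags ending in 8 or more A. Without those tags Cd68 had 35 copies in each library, and after correction for tag ends its log2 ratio was -0.27. Aif1 (5.61 and 9.08 TPM), Csf1r (8.56 and 6.96 TPM) and C1qb (2.36 and 2.42 TPM) were not called. Only Flt1, at 2 copies in the RNAi library, was listed of 4 endothelial markers, and none of 3 germ cell markers (Ddx4, Dazl, Sycp3) was listed. The part of cell composition in the results below was not tested, and in RNA from a whole culture fewer cells of a type and less RNA per cell cannot be told apart.

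The first comparison asked whether any of the machinery differed between the RNAi and the control library. Prkra, the partner of Dicer that also activates the kinase PKR, was lower by a log2 ratio of -0.81. The tudor gene Tdrd7 was lower by -2.04. The other 5 listed genes (Dgcr8, Xpo5, Tarbp2, Snd1 and Mov10) passed in neither direction. A gene was called when Fisher's exact test (two-sided) on its copies against those of all other genes gave an FDR of 0.05 or less after Benjamini-Hochberg adjustment over 9894 genes, with a log2 ratio of TPM of at least 0.58 in size. By this rule 2 of the 7 were called lower, where 5.97% of all genes were, and 0 were called higher, where 2.96% of all genes were. By the FDR alone Prkra and Tdrd7 were again the 2 lower members and 0 were higher, where 9.53% of all genes were lower and 7.14% higher. With edgeR's TMM factors the split over all genes moved from 591 lower and 293 higher to 459 and 398, with Prkra and Tdrd7 both still called. This test compares the 2 libraries and not the conditions, since there was no replicate, and its intervals cover counting error only.

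**Figure D1:**
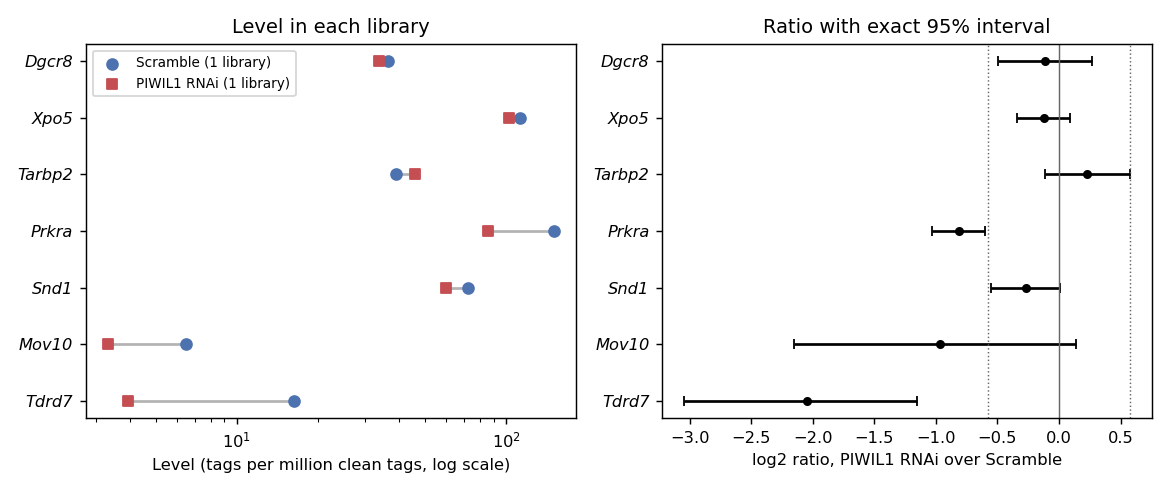
Level of the 7 listed genes in each library (left, TPM, log axis, 1 point per library) and their log2 ratio of PIWIL1 RNAi over Scramble (right, bars are exact 95% intervals of counting error, dotted lines mark -0.58 and 0.58). The intervals of Prkra and Tdrd7 lie wholly below -0.58, while those of the other 5 genes include 0.

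Of the 7 listed genes, 6 had a ratio below 1, Tarbp2 being the exception. Their median log2 ratio was -0.27, beside -0.085 over the 8899 genes listed in both libraries, of which 5041 had a ratio below 1. Their log2 ratios ran from -2.04 (Tdrd7) to 0.23 (Tarbp2). Depth differed widely among them, from 22 copies in the control library for Mov10 to 510 for Prkra. Among all genes with 300 to 1000 copies in both libraries together, the range of Prkra, 7.88% were called lower, and among those with 20 to 100 copies, the range of Tdrd7, 5.53% were.

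**Figure D2:**
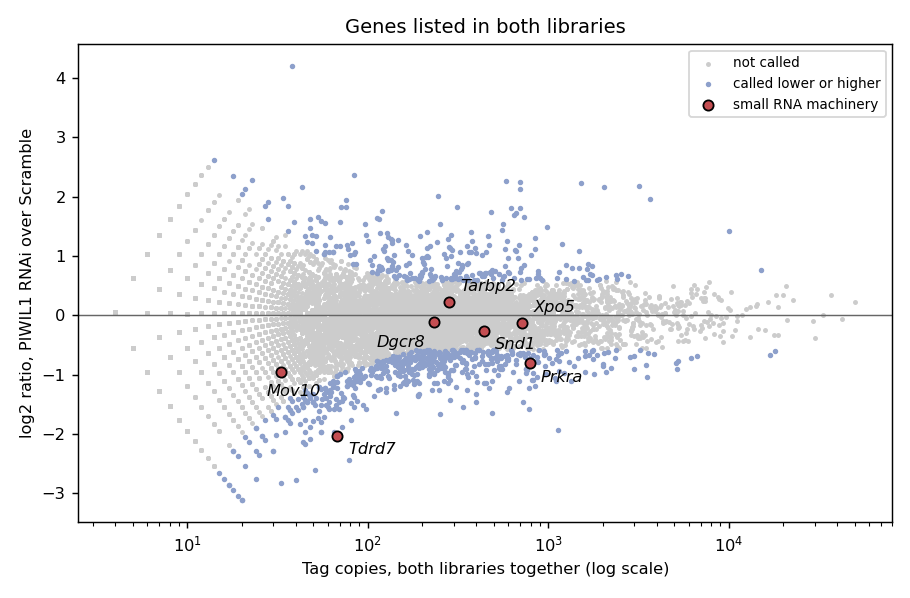
Log2 ratio of PIWIL1 RNAi over Scramble against tag copies in both libraries together (log axis) for the 8899 genes listed in both libraries, with called genes in blue and the 7 listed small RNA genes in red. Tdrd7 and Prkra lie among the called genes, Mov10 lies in the wide low-copy range at -0.96, and the other 4 lie between -0.27 and 0.23.

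Of the Microprocessor, only Dgcr8 could be followed. It had 123 copies (36.3 TPM) in the control library and 111 copies (33.6 TPM) in the RNAi library, a log2 ratio of -0.11 (exact 95% interval -0.50 to 0.27, FDR 0.871, Fisher's exact test). From 123 copies, 80 or fewer in the RNAi library would have been called lower and 180 or more higher. These limits lie at log2 ratios of -0.58 and 0.59, so they are set by the ratio threshold of the rule. A smaller difference would not have been called. Its 3 tags with at least 20 copies each had fewer copies in the RNAi library. The site 1 tag shown above went from 80 to 65 copies, the site 2 tag from 18 to 13 and the site 10 tag from 15 to 12. The site 3 tag ran the other way, from 2 to 12 copies, and the interval of its log2 ratio (0.45 to 5.82) did not include 0. Of its 9 tags, 5 were listed in both libraries.

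The export receptor Xpo5 had 380 copies (112 TPM) in the control library and 340 copies (103 TPM) in the RNAi library, a log2 ratio of -0.12 (exact 95% interval -0.34 to 0.09, FDR 0.636, Fisher's exact test). The interval excludes the threshold of 0.58 in either direction. Most copies lay on the site 2 tag (77.9% in the control library and 76.2% in the RNAi library), which went from 296 to 259 copies. As its second run of capitals shows, this tag reads through the next CATG, 6 bases on, where the site 1 tag begins. A further CATG lay inside 4.78% of all tags. The site 1 tag went from 45 to 57 copies, the opposite direction, and its log2 ratio of 0.38 had an interval that included 0 (-0.21 to 0.97). The site 3 tag fell from 13 to 3 copies, with an interval of -4.53 to -0.22. Tags with its last bases, TG, had a median log2 ratio of -0.59 relative to all tags. The site 5 tag had 13 and 7 copies.

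Dicer's partners Tarbp2 and Prkra, which are related double-stranded RNA-binding proteins, took different values. Tarbp2 had 132 copies (39.0 TPM) in the control library and 151 copies (45.7 TPM) in the RNAi library, a log2 ratio of 0.23 (exact 95% interval -0.12 to 0.58, FDR 0.355, Fisher's exact test). Its 7 tags were all listed in both libraries, and the 4 tags with at least 20 copies were each higher in the RNAi library. The site 1 tag went from 51 to 53 copies, site 4 from 33 to 40, site 2 from 22 to 30 and site 3 from 12 to 18. The interval of each of these 4 log2 ratios included 0. Prkra had 510 copies (151 TPM) in the control library and 283 copies (85.7 TPM) in the RNAi library. Its ratio was 0.569 and its log2 ratio -0.81 (exact 95% interval -1.03 to -0.60, FDR 2.75e-12, Fisher's exact test). The intervals of Prkra and Tarbp2 do not overlap, and the difference between the genes was not tested.

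The fall of Prkra was of unequal size at its 2 well-read sites. The site 1 tag went from 325 to 214 copies, a log2 ratio of -0.57 (exact 95% interval -0.82 to -0.31). The site 2 tag went from 178 to 64 copies, a log2 ratio of -1.44 (-1.88 to -1.02). The intervals of the 2 sites do not overlap. Site 1 held 64.1% of the gene's copies in the control library and 75.6% in the RNAi library. Relative to the median of all tags, those that end in CT, as the site 1 tag does, had a median log2 ratio of -0.17. For those that end in AT, as the site 2 tag does, it was -0.31. After each tag's copies were corrected for the relative median of its end, Prkra had a log2 ratio of -0.62 and was still called (FDR 9.16e-07, Fisher's exact test). With the site 1 tags alone, the log2 ratio was -0.576, just short of the threshold (FDR 4.03e-05, Fisher's exact test). The site 3 tag had 5 copies in each library.

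**Figure D3:**
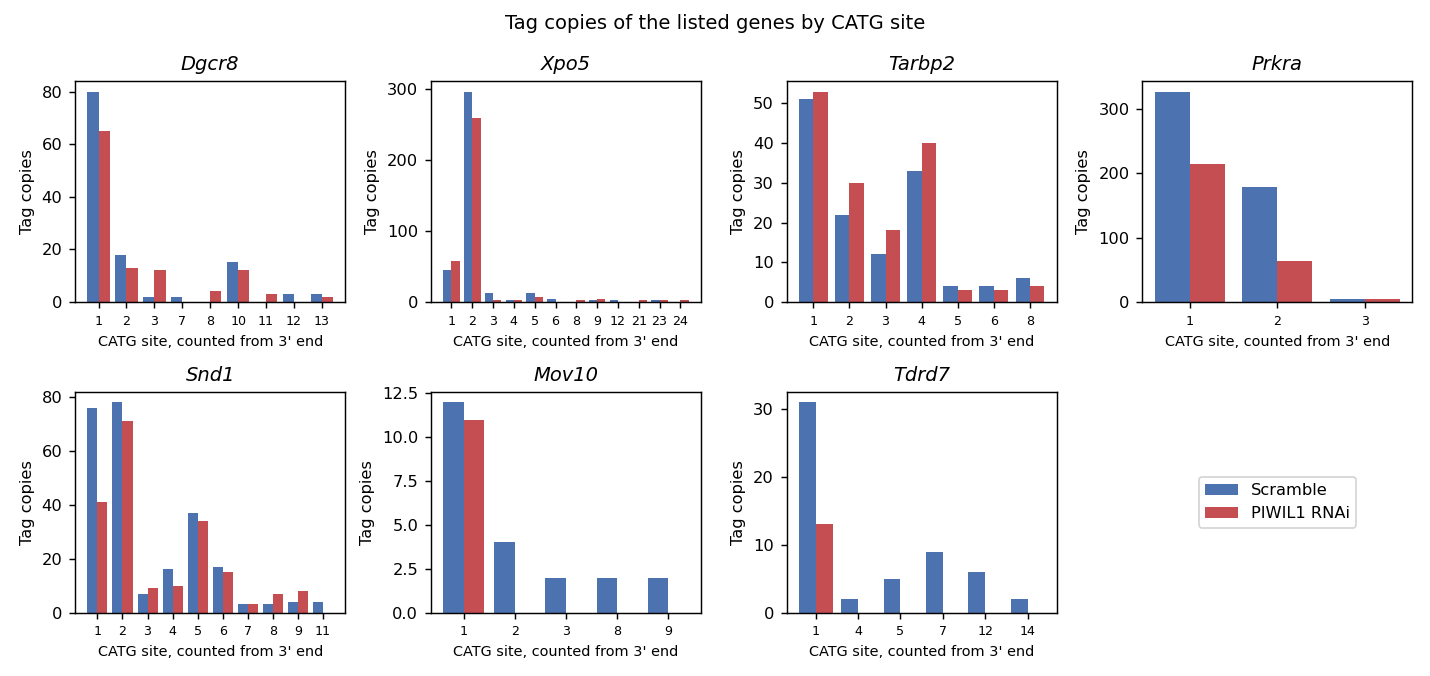
Tag copies of each listed gene at each of its listed CATG sites, numbered from the 3′ end, in the Scramble (blue) and PIWIL1 RNAi (red) libraries, as raw copies on a linear axis that differs between panels. Prkra is lower at sites 1 and 2, Tarbp2 is higher at sites 1 to 4, and Tdrd7 and Mov10 keep only site 1 in the RNAi library.

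The Argonaute-associated nuclease Snd1 had 245 copies (72.3 TPM) in the control library and 198 copies (59.9 TPM) in the RNAi library, a log2 ratio of -0.27 (exact 95% interval -0.55 to 0.0049, FDR 0.253, Fisher's exact test). Each of its 5 tags reaching 20 copies was lower in the RNAi library. Most of the difference in copies was at site 1, which went from 76 to 41, a log2 ratio of -0.85 (-1.44 to -0.29). The site 2 tag went from 78 to 71 copies, site 5 from 37 to 34, site 6 from 17 to 15 and site 4 from 16 to 10, and each of these 4 intervals included 0. With site 1 tags alone Snd1 was called lower (FDR 0.0126, Fisher's exact test). The site 1 tag ends in GT, an end with a median log2 ratio of -0.59 relative to all tags. With the correction for tag ends the log2 ratio of Snd1 was -0.13.

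The helicase gene Mov10 was near the limit of what these libraries can show. It had 22 copies (6.50 TPM) in the control library and 11 copies (3.33 TPM) in the RNAi library, a ratio of 0.512 or -0.96 on the log2 scale (exact 95% interval -2.16 to 0.14, FDR 0.262, Fisher's exact test). From 22 copies, a fall to 6 or fewer would have been called. The site 1 tag had 12 and 11 copies. The other 4 tags had 10 copies together in the control library and were not listed in the RNAi library. When tags missing from one of the libraries were given 1 copy there, the log2 ratio was -0.52.

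Tdrd7 had the largest fall of the 7 listed genes. It had 55 copies (16.2 TPM) in the control library and 13 copies (3.94 TPM) in the RNAi library. This is a ratio of 0.243 or -2.04 on the log2 scale (exact 95% interval -3.04 to -1.15, FDR 1.14e-05, Fisher's exact test). All 13 copies in the RNAi library were of the site 1 tag, which had 31 copies in the control library, a log2 ratio of -1.22 (-2.28 to -0.24). The other 5 tags, at sites 4, 5, 7, 12 and 14, had 24 copies together in the control library and were not listed in the RNAi library. Of these the site 7 tag had 9 copies and the site 12 tag 6. If not listed is read as 0 copies, the upper bounds of their intervals (-0.94 and -0.20) were below 0. No tag with fewer than 2 copies was listed, so 1 copy cannot be told from 0 there. When each of the 5 unlisted tags was given 1 copy in the RNAi library, the log2 ratio of Tdrd7 was -1.58 (FDR 0.000433, Fisher's exact test). With the site 1 tags alone it was no longer called (FDR 0.0557, Fisher's exact test). Corrected for tag ends, the log2 ratio of Tdrd7 was -1.99, and the site 1 tag ends in GA, an end with a median of -0.027 relative to all tags.

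No tag of the 7 genes ended in 8 or more A, the kind of tag whose copies were most raised over all genes in the RNAi library. The longest such run at the end of any of their tags was 1 A. Of their 19 tags that reached 20 copies, 14 were lower in the RNAi library (73.7%), beside 55.3% of 16021 tags with as many copies over all genes. Tags of 1 gene share their transcripts and are not independent.

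Beyond the 10 genes, 85 other genes of small RNA pathways were looked up, and 42 were listed. By the same rule 3 of the 42 were called lower (Hnrnpa1, Ptges3 and Tsnax) and 1 higher (Ddx6), where 5.97% and 2.96% of all genes were. Their median log2 ratio was -0.15, and 26 had a ratio below 1.

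Of 9 protein partners of the Microprocessor, 7 were listed and 1 was called lower. Hnrnpa1, an RNA-binding splicing protein that also binds some primary microRNAs, fell from 11085 to 7077 copies, a log2 ratio of -0.61 (exact 95% interval -0.65 to -0.57, FDR 5.24e-158, Fisher's exact test). Genes with near-identical copies, as Hnrnpa1 has, may share tags, so its value is uncertain, and it was not called with edgeR's TMM or DESeq2's size factors. The helicase Ddx5 had 4177 and 3575 copies, a log2 ratio of -0.19, and Srsf3 had 1996 and 1322 copies, a log2 ratio of -0.56, short of the threshold. Of 3 nuclear transport genes only Xpo1 was listed, with 103 and 81 copies.

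Of 13 genes of dicing, editing and loading, 9 were listed and 2 were called lower. Tsnax, a subunit of the C3PO nuclease that helps to activate the Argonaute complex, fell from 166 to 87 copies, a log2 ratio of -0.90 (exact 95% interval -1.29 to -0.51, FDR 6.56e-05, Fisher's exact test). Its binding partner Tsn had 30 copies in each library, a log2 ratio of 0.04 (-0.74 to 0.82). Ptges3, the p23 cochaperone of Hsp90, fell from 187 to 112 copies, a log2 ratio of -0.70 (-1.05 to -0.36, FDR 0.0010, Fisher's exact test). The chaperone Hspa8, the most copied gene of this list, had 16816 and 16408 copies, a log2 ratio of 0.00058. Of the Argonautes, Ago1 had 53 and 68 copies, a log2 ratio of 0.40 (-0.14 to 0.94), and an entry described as like argonaute-4 (NM_001106686), not counted among the 42, had 2 copies in each library. Dicer1 was not listed.

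Of 24 silencing effectors, 15 were listed, 0 were called lower and 1 was called higher. Ddx6, a helicase of P bodies, rose from 112 to 244 copies, a log2 ratio of 1.16 (exact 95% interval 0.83 to 1.5, FDR 3.77e-12, Fisher's exact test). Tags with a final run of 8 or more A made up 69.6% of its copies in the control library and 92.6% in the RNAi library. The most copied of them, CATGtagttaaaaaaaaaaaa, shown for its run of A, went from 36 to 100 copies. Without such tags Ddx6 had 34 and 18 copies and a log2 ratio of -0.88 (FDR 0.199, Fisher's exact test), the opposite direction. The poly(A)-binding protein gene Pabpc1 had 813 and 621 copies, a log2 ratio of -0.35. Tnrc6b, a GW182 protein that links Argonaute to deadenylation, had 116 and 96 copies.

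Of 11 genes that tail or degrade small RNAs, 5 were listed and 0 called, with 207 and 183 copies for the exonuclease Xrn2 and 73 and 44 for the uridylyltransferase Tut4 (log2 ratio -0.69, FDR 0.0819, Fisher's exact test). Of 25 other genes looked up for the piRNA pathway, a list that takes in tudor genes whether or not they act in it, 5 were listed and 0 called. These were Prmt5 (257 and 253 copies), Wdr77 (186 and 168), Tdrd3 (45 and 29), Mybl1 (13 and 13) and Tdrkh (16 and 5). Prmt5 and Wdr77 form a methyltransferase that many cells use, and Tdrkh and Tdrd3 are tudor proteins like Tdrd7. Tdrkh had a log2 ratio of -1.64 (exact 95% interval -3.45 to -0.13, FDR 0.123, Fisher's exact test) and Tdrd3 of -0.60 (-1.32 to 0.11, FDR 0.307, Fisher's exact test), and neither was called at this depth.

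After the tag-end correction, none of Hnrnpa1, Ptges3, Tsnax and Ddx6 was called, with log2 ratios of -0.31, -0.32, -0.47 and 0.0085. The most copied tags of Ptges3 and Tsnax end in GT, and that of Hnrnpa1 ends in AT. Prkra and Tdrd7 were called under this correction.

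**Figure D4:**
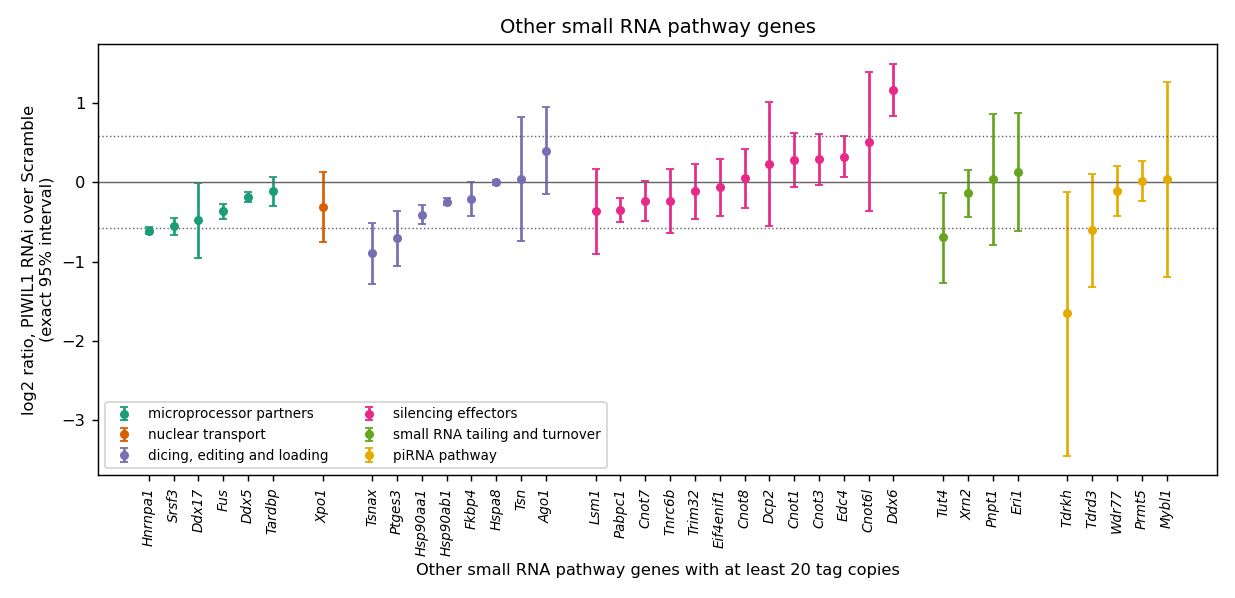
Log2 ratio of PIWIL1 RNAi over Scramble with exact 95% intervals of counting error for 37 other small RNA pathway genes that reached 20 copies over both libraries, coloured by list, with dotted lines at -0.58 and 0.58. Tsnax, Ptges3 and Hnrnpa1, which were called, lie below the lower line, as do Tut4, Tdrd3 and Tdrkh, which were not, and Ddx6 lies above the upper one, all as deposited and before tag ends were corrected.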

How the data were processed

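Tag counts per gene and per tag were deposited by the authors without normalization, and TPM was deposited as copies scaled to the clean tags (3386864 for Scramble and 3303358 for PIWIL1 RNAi, recovered from count and TPM), without gene length. The labels name the build rn4. The program and transcripts used for matching are not given in the sources used here. The copies of all tags of a gene add up to its count. Symbols came from a rat RefSeq table (GRCr8) by accession for 9337 of 9894 genes. As that table's build differs, no positions are given.

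The members and the lists were chosen with earlier results of these data known. Named are the 10 members, their tags with at least 20 copies, and of the other pathway genes those called and the most copied one of each list; genes named beside these were chosen after their values were seen. Likeness of pattern was not computed from 2 libraries.

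Log2 ratios of genes in the main setting are those of the deposited TPM. Ratios of tags, all intervals and the alternative settings used copies over the clean tags, save that TMM and DESeq2 used their own scaled totals. Fisher's exact test and Clopper-Pearson intervals (95%) were tested on simulated data. With 1 library per condition, edgeR's quasi-likelihood test could not be fitted. For the tag-end correction, classes were the last 2 bases of a tag or, for a final run of 3 or more A, its length. The median log2 ratio of each class was taken from one part of the genes (0.5 copies added, only tags reaching 20 copies). Its difference from the median over all such tags was removed from the tags of the other part. Tag-end medians given above are likewise relative to all such tags, over all genes. Other alternatives were TMM (edgeR 4.0.16) and DESeq2 1.42.0 size factors, all clean tags as totals, at least 10 copies, no tags ending in 8 or more A, 1 copy put back or added, an exact test in edgeR at a biological coefficient of variation (BCV) set to 0.1 or 0.2, other ratio thresholds and copies summed per symbol. Site 1 alone, and each gene's most copied tag left out, were chosen after seeing the data. Python 3.11.15, SciPy 1.17.1 and R 4.3.3 were used. The values of 1 listed pathway gene are counted in its list but not reported or plotted here.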

Additional observations from a re-analysis of the deposited data

How the results depend on the processing

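No paired analysis was possible because each condition had 1 library and the labels give no replicate numbers. Prkra and Tdrd7 were called lower under each alternative but these: with an assumed BCV of 0.2, 0 listed members were called (FDR 1 for Prkra and 0.212 for Tdrd7 by edgeR's exact test), with a log2 threshold of 1 the number was 1 (Tdrd7), and with site 1 alone it was 1 (Snd1). With an assumed BCV of 0.1 both were called (FDR 0.0306 for Prkra and 0.00135 for Tdrd7 by edgeR's exact test). With each gene's most copied tag left out, Mov10 was called as well (FDR 0.0365 by Fisher's exact test), its remaining tags being listed in the Scramble library only. In this setting Mov10 and Tdrd7 had no copies in the RNAi library and so no finite ratio. The members' median log2 ratio without these genes was -0.016, beside -0.134 over all genes with a finite ratio. It is not like for like with the -0.27 of the main setting, which covers all 7. Over the alternatives the log2 ratio ran from -1.39 to -0.58 for Prkra. Of the other pathway genes, against 3 lower and 1 higher, 0 and 0 were called with the tag-end correction, 9 and 3 by FDR alone, 1 and 2 with site 1 alone, and 0 and 0 with a BCV of 0.2. Hnrnpa1 lost its call with TMM and with DESeq2 size factors, leaving 2 lower, and without each gene's most copied tag the 3 lower were Hnrnpa1, Hsp90aa1 and Srsf3. With a BCV of 0.1, or a log2 threshold of 1, 0 were lower, and without tags ending in 8 or more A, 0 were higher. Over all genes, against 591 lower and 293 higher, the numbers were 379 and 191 with the tag-end correction, 170 and 114 with a BCV of 0.1, 2 and 15 with 0.2, 943 and 706 by FDR alone, 262 and 146 with a log2 threshold of 1, and 250 and 128 without each gene's most copied tag. The cause was not tested.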

Other observations

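Prkra also had a second tag listed at site 1, with 2 copies in the Scramble library and none listed in the PIWIL1 RNAi library. It differs from the main site 1 tag by A6T, counted from 1 at the 5′ end of the tag, and was the only pair of tags of the 7 listed genes that lay at 1 site and differed by 1 base.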
